A study of Mus musculus with 64 samples.

Results

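The hearts compared here came from male C57BL/6 mice at 2 neighbouring times of day, ZT00 and ZT03, in which ZT is zeitgeber time and ZT00 is by convention the moment the lights come on. The biventricular heart (both ventricles) was taken from mice with a cardiomyocyte-specific knockout of E4BP4, called CEK, and from their control littermates, called CON, with 4 biological replicates for each genotype and time. The libraries were chosen by their sample titles, which gave 16 of the 64 RNA-seq libraries of the series: 8 at ZT00 and 8 at ZT03. The question was which genes differ between lights-on and 3 h later in hearts of both genotypes, with genotype kept as a block so that a steady difference between CEK and CON does not enter the comparison. The labels do not give the promoter that drives the Cre recombinase, the age of the mice, the feeding or the light schedule. They name biological replicates without saying that each is a separate animal, and p-values measure the spread between these samples.

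The circadian clock of the heart is a loop of transcription factors that runs inside each cardiomyocyte. CLOCK and BMAL1 (encoded by Arntl) switch on the period, cryptochrome and REV-ERB genes through E-box elements. The period and cryptochrome proteins then repress CLOCK and BMAL1, and the REV-ERB proteins (encoded by Nr1d1 and Nr1d2) repress Arntl. DBP, TEF and HLF activate, and E4BP4 (encoded by Nfil3) represses, genes that carry D-box elements. Mice eat mostly in the dark, so the first hours of light also open the resting phase, in which feeding, body temperature, and blood glucose and fatty acids change. Glucocorticoids, which are low around lights-on in mice, are a further daily signal to the heart.

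Each of the 16 libraries held 19.8 M to 39.7 M counts on genes, with 20.02 to 27.4% of them on mitochondrial genes. CEK at ZT00 replicate 4 stood apart: it held the fewest counts (19.8 M, against 24.4 M to 39.7 M in the others) and the largest share of reads in no gene (6.16%, against at most 3.98%). It had a score of 104.6 on the first principal component, which took 41.5% of the variance, while the other 15 libraries lay between -28.8 and 28.1. Nfil3, the gene targeted in CEK, was at 30.0, 31.8, 24.5 and 29.1 CPM (counts on the gene per M counts of the library, TMM-scaled) in CON at ZT00 and at 15.6, 13.8, 26.4 and 14.7 CPM in CON at ZT03, in the order of the replicates. In CEK it was at 3.74, 4.02, 4.46 and 2.68 CPM at ZT00 and at 3.10, 4.06, 3.76 and 3.40 CPM at ZT03, so all 8 CEK libraries lay below all 8 CON libraries. The defining markers of ventricular cardiomyocytes were abundant in all 16 libraries, with a mean of 11.9 to 12.2 log2 CPM over 12 genes. The atrial marker score ran from 4.32 to 7.41 log2 CPM over 11 genes. Its difference between the times did not pass (exact permutation test within genotype, two-sided, adjusted p = 0.856 over 19 library measures). The median log2 fold change of these genes from ZT00 to ZT03 was 0.32 in CON and -0.63 in CEK.

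Taken as an average, clock genes of 2 hearts labelled ZT03 were at the level of ZT00, though Nr1d1 was above it. These hearts enter the comparisons below. A clock score was taken as the mean log2 CPM of 7 clock genes that are higher at ZT06 than at ZT21 minus the mean of 5 that are lower, so that neither ZT00 nor ZT03 libraries chose its genes. The 8 ZT00 hearts scored 0.398 to 0.577. CON at ZT03 replicate 3 scored 0.410 and CEK at ZT03 replicate 2 scored 0.544, while the other 6 ZT03 hearts scored 0.711 to 1.03. The mean was 1.78 ± 0.14 at ZT06 and 0.561 ± 0.039 at ZT21 (SD, n = 8 each). The libraries labelled CON at ZT03 replicate 3 and CEK at ZT03 replicate 2 carry the submitters' numbers 5 and 4, and the other ZT03 hearts carry 16, 17, 40, 41, 78 and 79. What set these 2 hearts apart was not tested. They stay in the comparison as labelled, and the counts of calls and most named genes are also given without them, a setting chosen after the data were seen. Hearts in the same run of consecutive submitters' numbers also tended to deviate from their group means together. At ZT03 each run was a CEK and a CON heart, and the correlation across genes was 0.44, 0.56, 0.59 and 0.29 for the 4 pairs. For 3 pairs at ZT00 it was 0.24, -0.42 and 0.38, where the last pair, numbered 63 and 65, shares a run with 64. The labels do not say what these numbers stand for, and the main test treats all hearts as independent. Since clock genes picked them, a larger difference in clock genes without them follows from that choice.

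**Figure D1:**
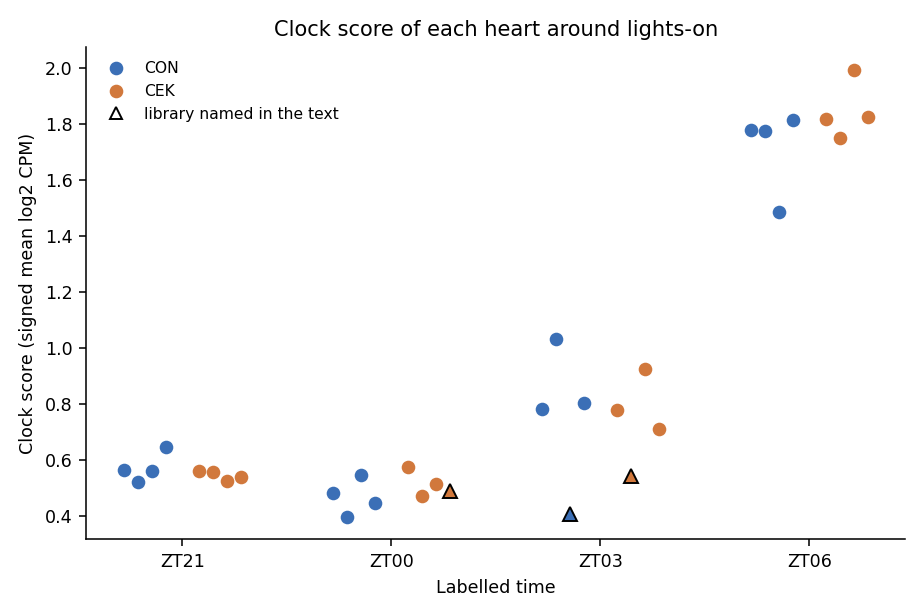
Clock score (signed mean log2 CPM of 12 clock genes, y axis) of each heart at the labelled times ZT21, ZT00, ZT03 and ZT06 (x axis), CON in blue and CEK in orange. Triangles mark the 3 libraries named in the text; the ZT03 triangles, at 0.410 and 0.544, lie within the ZT00 range of 0.398 to 0.577.

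Of 15567 genes tested, 56 (0.36%) passed the quasi-likelihood test of edgeR at a Benjamini-Hochberg adjusted p of 0.05: 25 rose (0.161%) and 31 fell (0.199%) between ZT00 and ZT03. Over all tested genes 7542 were fitted higher and 8025 lower. These values are the background for the counts of each list below. The rises included clock genes (Nr1d1, Dbp) and some genes of fasting and fat use (Angptl4, Ucp3, Txnip, Lipe). The falls included the glycogen-targeting subunits Ppp1r3b and Ppp1r3c, the lipase inhibitor G0s2, the heat shock co-chaperone Dnajb1 and the immediate early gene Jun. All 56 had the same sign of change in CON and in CEK. The changes were mostly small, with a median size of 0.71 on the log2 scale, and 15 of the 56 reached a log2 fold change of 1 in either direction. The ranges of the 8 ZT00 and 8 ZT03 libraries did not overlap for 22 of the 56, against 35 genes (0.225%; 0.0964% higher and 0.128% lower) among all tested. Under each of 16 fits that leave out a single library, 26 of the 56 kept their call. The number of calls ran from 26 (without CEK at ZT00 replicate 3) to 101 (0.641%, without CEK at ZT00 replicate 4, with all 56 still called). It was also lower by more than 1.5 times without CON at ZT00 replicate 1 (32), CON at ZT00 replicate 3 (33), CEK at ZT03 replicate 3 (35), CON at ZT03 replicate 2 (37) and CON at ZT03 replicate 3 (37). Without both ZT03 hearts that scored like ZT00, 28 genes (0.178%) were called, of which 23 were among the 56. Nr1d1, Dbp, Ppp1r3b and Jun kept their calls in that fit, while Angptl4, Ucp3, Txnip, Lipe, Ppp1r3c, G0s2 and Dnajb1 did not. With consecutive numbers as a correlated block in limma's voom, 69 genes were called, against 152 in voom without the block, and 48 of the 69 were among the 56.

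**Figure D2:**
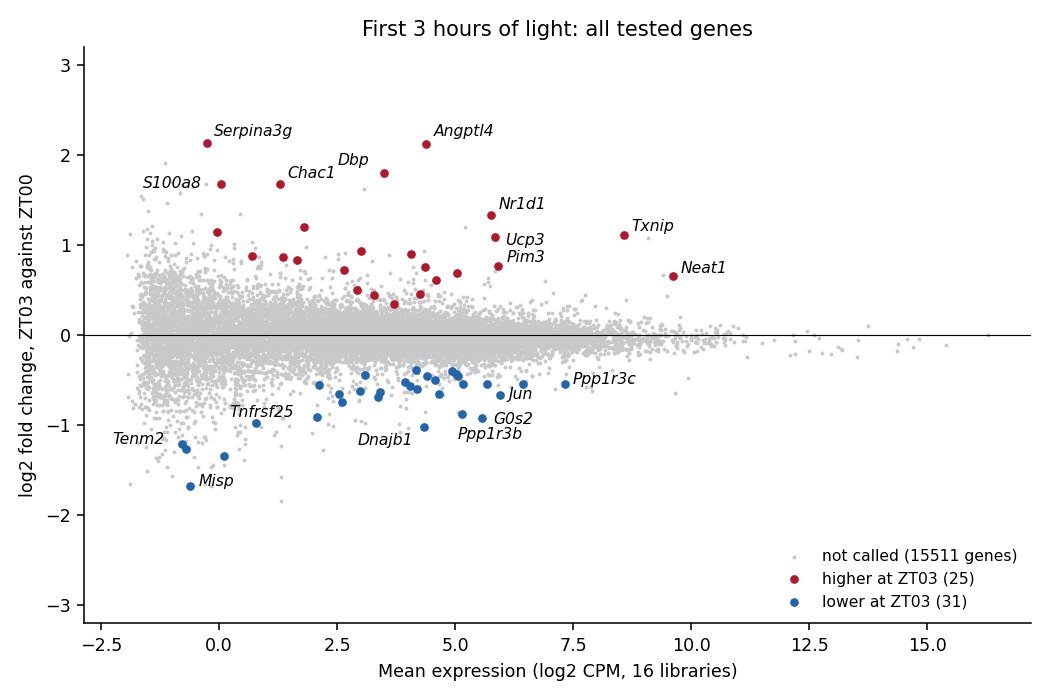
Log2 fold change of ZT03 against ZT00 (y axis) by mean expression over 16 libraries (log2 CPM, x axis) for all 15567 tested genes. Red points are the 25 genes that rose, blue points the 31 that fell and grey points the rest; the called genes reach from a log2 fold change of 2.13 for Serpina3g and Angptl4 to -1.68 for Misp.

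Of the 20 core clock genes, 1 passed the test. Nr1d1 (chr11:98767932-98775333, minus strand, GRCm38), which encodes the repressor REV-ERB alpha, was at 33.1, 28.6, 43.4 and 28.3 CPM in CON at ZT00 and at 61.1, 115, 62.0 and 107 CPM in CON at ZT03. The CEK hearts held 35.7, 25.0, 31.4 and 14.5 CPM at ZT00 and 49.0, 50.1, 102 and 64.5 CPM at ZT03. The lowest ZT03 heart (49.0 CPM) lay above the highest ZT00 heart (43.4 CPM), and the 2 hearts with ZT00-like clock scores were at 62.0 and 50.1 CPM. Nr1d1 rose by a log2 fold change of 1.34 ± 0.20 (SE, 8 libraries against 8; edgeR adjusted p = 0.00556), kept its call in all 16 leave-one-out fits and was at 1.46 without those 2 hearts. Its exons overlap those of Thra on the other strand. The labels do not say whether counting used the strand, so reads of such partners cannot be told apart.

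Dbp (chr7:45705088-45710203, plus strand) encodes the D-box activator whose sites E4BP4 also binds, and it had the largest rise among clock genes. It was at 5.47, 3.78, 4.79 and 5.83 CPM in CON at ZT00 and at 21.3, 28.6, 6.04 and 25.2 CPM in CON at ZT03. The CEK hearts held 6.31, 4.93, 4.58 and 3.22 CPM at ZT00 and 14.2, 5.71, 25.4 and 12.1 CPM at ZT03. Among the ZT03 hearts 6 lay at 12.1 CPM or above, and the other 2, CON replicate 3 and CEK replicate 2, fell within the ZT00 range of 3.22 to 6.31 CPM. The log2 fold change was 1.81 ± 0.30 (SE, 8 against 8; edgeR adjusted p = 0.0123) with them and 2.09 without them, called in both fits. Dbp overlaps exons of Sphk2 on the other strand.

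Over the whole core clock list, 3 genes were higher and 2 lower at an unadjusted p under 0.05, against 4.85% and 4.24% of all genes, and the median log2 fold change was 0.00. Nr1d2, which encodes REV-ERB beta, ran from 28.3 CPM (median 40.7, highest 57.9) at ZT00 to 46.0, 66.7 and 116 CPM at ZT03, with a log2 fold change of 0.71 ± 0.16 (edgeR adjusted p = 0.081). Cry1, which encodes a repressor of CLOCK and BMAL1, was at 13.3, 21.5 and 25.4 CPM (lowest, median, highest) at ZT00 and at 8.88, 11.96 and 19.99 CPM at ZT03. Its log2 fold change was -0.64 ± 0.16 (edgeR adjusted p = 0.131). The 2 highest ZT03 values of Cry1, 19.99 and 17.8 CPM, belonged to the hearts with ZT00-like scores, and without them Cry1 was called at -0.86. Arntl stayed within its spread at -0.14 ± 0.098 (adjusted p = 0.756), as did Per2 at -0.37 ± 0.21 (adjusted p = 0.654) and Per3 at 0.07 ± 0.16 (adjusted p = 0.979). In the libraries of ZT06 against those of ZT21, 7 of the 20 were called higher and 5 lower, against 2.27% and 2.41% of all genes tested there.

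Nfil3 itself did not pass the test over both genotypes (log2 fold change -0.43 ± 0.16, edgeR adjusted p = 0.363). In CON it was at -0.72 ± 0.19 (adjusted p = 0.623) and in CEK, where the gene is targeted, at -0.07 ± 0.20 (adjusted p = 0.979). The difference between the genotypes was 0.65 ± 0.28 (adjusted p = 1). In CON, 3 of the 4 ZT03 hearts lay at 13.8 to 15.6 CPM, below the ZT00 range of 24.5 to 31.8 CPM, and the fourth, at 26.4 CPM, was the heart with the ZT00-like clock score. Among the 14 tested genes of the D-box list Dbp alone was called, and Hlf was at -0.33 ± 0.084 (adjusted p = 0.131). With CEK at ZT00 replicate 4 left out, 1 gene of the D-box list was called higher and 1 lower. Among 26 outputs of the cardiac clock 1 fell: Wee1, which encodes a kinase that holds back mitosis and is driven by the clock, with 12.6, 17.6 and 28.7 CPM (lowest, median, highest) at ZT00 and 8.36, 11.8 and 20.9 CPM at ZT03. Wee1 fell by 0.57 ± 0.10 on the log2 scale (edgeR adjusted p = 0.0171). The ranges over both genotypes overlapped, and at each time every CEK heart had more Wee1 than every CON heart. The call on Wee1 was lost in 1 of 16 leave-one-out fits (adjusted p = 0.0513 without CEK at ZT00 replicate 3), and it was kept, at -0.64, without the 2 ZT03 hearts.

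**Figure D3:**
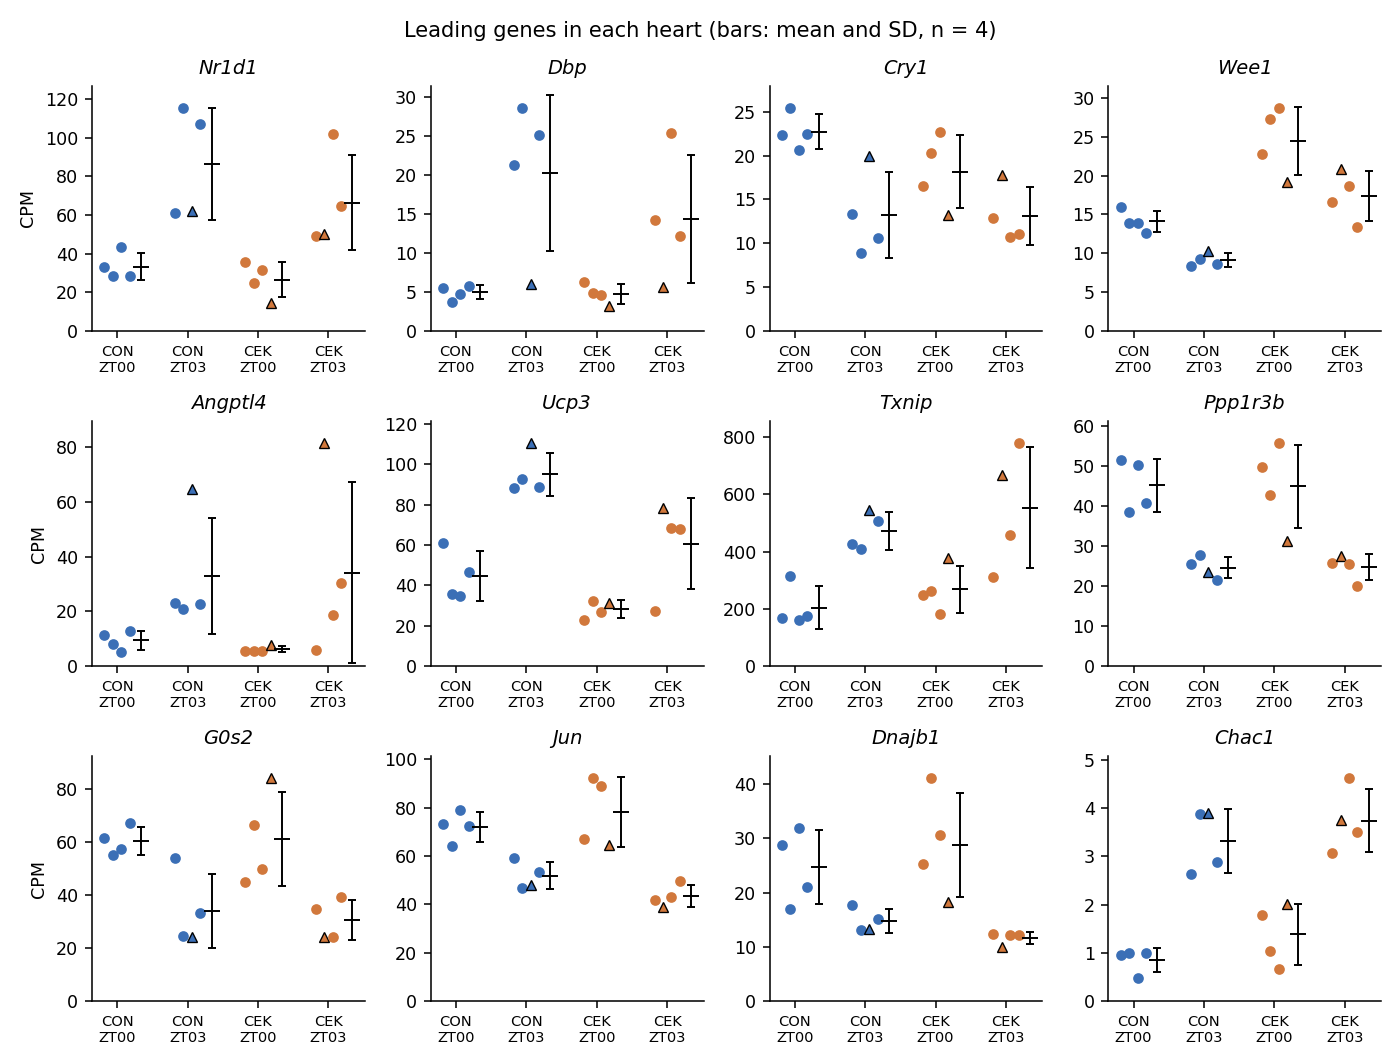
CPM of 12 genes (y axes, from 0) in each heart by genotype and time (x axis), with the mean and SD of 4 hearts beside each group. Triangles mark CEK at ZT00 replicate 4, CON at ZT03 replicate 3 and CEK at ZT03 replicate 2; the ZT03 triangles are the lowest of their groups for Dbp and the highest for Angptl4, Cry1 and Ucp3.

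Genes of fasting and fatty acid use rose in a small number. Of 26 tested members of the fasting and PPAR alpha list, 3 rose and 0 fell, against 0.161% and 0.199% of all genes. Of the same list 15 were fitted higher and 11 lower, and 0 were called without the 2 ZT03 hearts. At an unadjusted p under 0.05, 5 were higher, against 4.85% of all genes. The median log2 fold change was 0.06, against -0.01 over all genes. Angptl4 (chr17:33773750-33781830, minus strand) encodes a secreted inhibitor of lipoprotein lipase. It was at 11.5, 7.92, 5.19 and 13.0 CPM in CON at ZT00 and at 23.2, 20.9, 64.5 and 22.6 CPM in CON at ZT03. The CEK hearts held 5.66, 5.63, 5.55 and 7.75 CPM at ZT00 and 5.85, 81.3, 18.6 and 30.5 CPM at ZT03. The hearts with ZT00-like clock scores were the 2 highest, and CEK at ZT03 replicate 1 stayed at the ZT00 level. Angptl4 rose by a log2 fold change of 2.13 ± 0.41 (edgeR adjusted p = 0.030), was at 1.41 and not called without the 2 high hearts, and lost its call in 8 of 16 leave-one-out fits (highest adjusted p 0.0869, without CON at ZT03 replicate 3).

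Ucp3 (chr7:100472990-100486432, plus strand), which encodes a mitochondrial carrier that fatty acids induce, was at 61.0, 35.96, 34.6 and 46.8 CPM in CON at ZT00 and at 88.1, 92.6, 110 and 88.7 CPM in CON at ZT03. Among CEK hearts it was at 23.0, 32.1, 26.8 and 31.3 CPM at ZT00 and at 27.4, 78.2, 68.6 and 68.1 CPM at ZT03. Within each genotype the groups were apart except for CEK at ZT03 replicate 1, and Ucp3 rose by 1.09 ± 0.17 on the log2 scale (edgeR adjusted p = 0.00914), in all 16 leave-one-out fits. Txnip (chr3:96557957-96561883, plus strand) encodes an inhibitor of thioredoxin that also restrains glucose uptake. It was at 169, 315, 160 and 175 CPM in CON at ZT00 and at 426, 411, 547 and 507 CPM in CON at ZT03, and at 248, 263, 184 and 378 CPM against 310, 670, 458 and 779 CPM in CEK. It rose by 1.12 ± 0.20 on the log2 scale (edgeR adjusted p = 0.0171), in all 16 leave-one-out fits. Without the 2 ZT03 hearts Ucp3 was at 0.98 and Txnip at 1.03, and neither was called. Txnip overlaps exons of a gene model on the other strand.

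Pdk4, which encodes a kinase that shuts pyruvate dehydrogenase and so spares glucose, ran from 211 CPM (median 311, highest 605) at ZT00 to 241, 658 and 1294 CPM at ZT03, and its change of 1.08 ± 0.27 did not pass (edgeR adjusted p = 0.115). Its highest ZT03 hearts were again those with ZT00-like clock scores, at 1294 and 1117 CPM, and without them it was at 0.71. Of 37 tested genes of triglyceride storage and lipolysis, 1 rose and 1 fell, and the median was -0.01. Lipe (chr7:25379527-25398710, minus strand), which encodes hormone-sensitive lipase, had 20.6, 24.1 and 29.6 CPM (lowest, median, highest) at ZT00 and 21.9, 37.7 and 57.9 CPM at ZT03. It rose by 0.69 ± 0.14 (edgeR adjusted p = 0.0323). G0s2 (chr1:193272161-193273217, minus strand), which encodes an inhibitor of adipose triglyceride lipase, had 44.8, 59.4 and 83.9 CPM at ZT00 and 24.03, 28.8 and 53.9 CPM at ZT03, and fell by 0.92 ± 0.18 on the log2 scale (edgeR adjusted p = 0.030). Each was called in 4 of 16 leave-one-out fits, with highest adjusted p of 0.0904 for Lipe (without CEK at ZT00 replicate 2) and 0.079 for G0s2 (without CEK at ZT03 replicate 3). Neither was called without the 2 ZT03 hearts, at 0.70 and -0.80. Lipe overlaps exons of a gene model on the other strand.

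Among genes of glycogen control 2 fell. Ppp1r3b (chr8:35375739-35388139, plus strand) and Ppp1r3c (chr19:36731731-36736653, minus strand) encode subunits that bring protein phosphatase 1 to glycogen and favour its synthesis. Ppp1r3b was at 51.3, 38.4, 50.2 and 40.6 CPM in CON at ZT00 and at 25.4, 27.8, 23.6 and 21.5 CPM in CON at ZT03. Among CEK hearts it was at 49.6, 42.8, 55.6 and 31.2 CPM at ZT00 and at 25.7, 27.5, 25.5 and 19.98 CPM at ZT03. The highest ZT03 heart (27.8 CPM) lay below the lowest ZT00 heart (31.2 CPM, the library that stood apart), and the hearts with ZT00-like clock scores sat with the other ZT03 hearts at 23.6 and 27.5 CPM. Ppp1r3b fell by 0.87 ± 0.11 on the log2 scale (edgeR adjusted p = 0.00211), was called in all 16 leave-one-out fits, and was called at -0.89 without those 2 hearts. Ppp1r3c had 160.4, 184 and 232 CPM (lowest, median, highest) at ZT00 and 94.7, 127 and 183 CPM at ZT03, and fell by 0.54 ± 0.11 (edgeR adjusted p = 0.0305). It was called in 4 of 16 leave-one-out fits (highest adjusted p 0.079, without CEK at ZT00 replicate 3) and not without the 2 ZT03 hearts (-0.57). Over the 43 tested genes of glucose uptake, glycolysis and glycogen, these were the only calls, and the median was -0.04. At an unadjusted p under 0.05, 3 genes were higher and 3 lower, against 4.85% and 4.24% of all genes.

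Sequence ahead of the gene start was searched for 7 motifs in RefSeq windows of GRCm38.p6 (250 bases before to 50 after the start), since clock, D-box, heat shock and glucocorticoid factors act through known letters. A window existed for 37 of the 56 called genes and for 11269 of the tested genes. The E-box (CACGTG, the same on both strands) was in 2 of 19 windows of genes that rose and 1 of 18 that fell, against 11.4% of all windows, which is near that background. The D-box (TTATGTAA, TTACGTAA or TTACATAA, covering both strands) was in 1 of 19 and 0 of 18, against 0.834%, and the glucocorticoid element (GNACA, any 3 bases, then TGTNC, the same on both strands) in 1 of 19 and 0 of 18, against 0.426%. The ROR element (TAGGTCA or TGACCTA, 2.23% of all), the heat shock element (GAA, TTC and GAA with NN between them, or TTC, GAA and TTC, 0.568%), the cAMP element (TGACGTCA, 3.38%) and the direct repeat 1 element (AGGNCA, any base, then AGGNCA, on either strand, 0.24%) were in 0 of these windows. The 250 bases before the start are shown for 4 called genes of fat use, glycogen, glucose uptake and interleukin signalling that hold a match, 5′ to 3′ on the gene's strand, with the match in capitals. A match says only that these letters are there. The Lipe window lies ahead of a RefSeq start inside the annotated gene (chr7:25379527-25398710, minus strand), not ahead of its outermost start.
Ppp1r3c, chr19:36736605-36736854, minus strand, E-box starting 104 bases before the start: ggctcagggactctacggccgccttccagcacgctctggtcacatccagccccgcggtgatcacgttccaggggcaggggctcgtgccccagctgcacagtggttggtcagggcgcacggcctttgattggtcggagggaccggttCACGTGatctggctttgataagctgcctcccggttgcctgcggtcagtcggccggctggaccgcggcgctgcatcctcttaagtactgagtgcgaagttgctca
Lipe, chr7:25395988-25396237, minus strand, E-box starting 155 bases before the start: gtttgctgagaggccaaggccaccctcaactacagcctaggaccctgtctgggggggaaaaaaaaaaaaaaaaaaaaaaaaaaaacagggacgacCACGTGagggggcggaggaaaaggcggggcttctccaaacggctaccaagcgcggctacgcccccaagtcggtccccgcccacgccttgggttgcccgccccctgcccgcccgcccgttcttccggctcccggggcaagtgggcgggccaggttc
Txnip, chr3:96557707-96557956, plus strand, glucocorticoid element starting 172 bases before the start: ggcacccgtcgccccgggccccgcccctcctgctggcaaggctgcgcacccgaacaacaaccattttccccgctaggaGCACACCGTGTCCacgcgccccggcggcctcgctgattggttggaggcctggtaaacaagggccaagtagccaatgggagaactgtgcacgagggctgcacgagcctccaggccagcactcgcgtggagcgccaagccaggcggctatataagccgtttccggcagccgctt
Il1rl2, chr1:40324339-40324588, plus strand, D-boxes starting 192 and 144 bases before the start: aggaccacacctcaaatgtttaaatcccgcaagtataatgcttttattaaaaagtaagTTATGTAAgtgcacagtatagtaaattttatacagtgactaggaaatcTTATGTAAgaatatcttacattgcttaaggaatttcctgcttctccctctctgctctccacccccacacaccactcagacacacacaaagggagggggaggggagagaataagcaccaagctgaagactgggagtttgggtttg

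Il1rl2 (chr1:40324610-40367562, plus strand), whose window holds the pair of D-boxes, encodes a receptor for interleukin 36. It was at 0.874, 1.62 and 2.48 CPM (lowest, median, highest) at ZT00 and at 2.54, 3.12 and 3.96 CPM at ZT03, so the ranges did not overlap. The log2 fold change was 0.87 ± 0.17 (edgeR adjusted p = 0.0323) over both genotypes, with 0.85 ± 0.26 in CON and 0.89 ± 0.25 in CEK. Their difference was 0.04 ± 0.36 (adjusted p = 1). The call was kept in 6 of 16 leave-one-out fits (highest adjusted p 0.0888, without CEK at ZT00 replicate 3) and was lost without the 2 ZT03 hearts (0.82). Whether E4BP4 acts on Il1rl2 was not tested.

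Few temperature and stress genes were called. Of 31 heat shock genes 25 had a fitted fold change below 0, as did 8025 of all 15567 genes. The median was -0.08 (-0.16 without the 2 ZT03 hearts), and 1 fell, against 0.199% of all genes: Dnajb1 (chr8:83608193-83612653, plus strand), the HSP40 partner of HSP70. It had 17.0, 27.0 and 41.0 CPM (lowest, median, highest) at ZT00 and 10.04, 12.7 and 17.8 CPM at ZT03, where 1 ZT03 heart passed the lowest ZT00 heart, and it fell by 1.02 ± 0.17 (edgeR adjusted p = 0.0112). Dnajb1 was called in all 16 leave-one-out fits but not without the 2 ZT03 hearts (-0.96). In the fit without them 1 other gene of the heat shock list was called lower. Hspa1b, which encodes an inducible HSP70, was at -1.28 ± 0.46 (adjusted p = 0.36) and Dnaja1 at -0.43 ± 0.17 (adjusted p = 0.444); both of the hearts with ZT00-like scores kept high Hspa1b, at 5.90 and 6.46 CPM, against 1.05 to 1.91 CPM in the other 6. Dnajb5, another HSP40 gene that was in no list, fell by 0.54 ± 0.097 (adjusted p = 0.0191), lost its call in 2 of 16 leave-one-out fits and was called, at -0.60, without the 2 ZT03 hearts. Cirbp, which encodes the cold-inducible RNA-binding protein, was at 29.2, 39.3 and 67.9 CPM at ZT00 and at 40.9, 62.9 and 78.6 CPM at ZT03. Its change of 0.59 ± 0.18 did not pass (adjusted p = 0.213), and it was called at 0.76 without CEK at ZT00 replicate 4, the ZT00 heart at 67.9 CPM.

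Chac1 (chr2:119351229-119354381, plus strand) encodes an enzyme that degrades glutathione and is a target of ATF4 in the amino acid response. It was at 0.955, 1.00, 0.491 and 0.993 CPM in CON at ZT00 and at 2.64, 3.87, 3.90 and 2.87 CPM in CON at ZT03. In CEK it was at 1.79, 1.05, 0.675 and 2.02 CPM at ZT00 and at 3.06, 3.75, 4.62 and 3.51 CPM at ZT03, so that no ZT03 heart overlapped a ZT00 heart. Chac1 rose by 1.68 ± 0.22 on the log2 scale (edgeR adjusted p = 0.00211), in all 16 leave-one-out fits and, at 1.65, without the 2 ZT03 hearts. It was the only call among 22 tested ATF4 and amino acid response genes, whose median was 0.04. With CEK at ZT00 replicate 4 left out, 1 gene of that list was called higher and 1 lower. Of 25 genes of the unfolded protein response 0 were called by edgeR, with 0 at an unadjusted p under 0.05.

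Among 26 immediate early genes 1 fell, and the median was -0.07, which turned to 0.01 without CEK at ZT00 replicate 4. At an unadjusted p under 0.05, 6 were lower and 1 higher, against 4.24% and 4.85% of all genes. Jun (chr4:95049034-95052222, minus strand), a subunit of the AP-1 factor, was at 73.1, 64.1, 79.1 and 72.4 CPM in CON at ZT00 and at 59.2, 46.9, 47.96 and 53.6 CPM in CON at ZT03. In CEK it was at 66.8, 92.1, 89.1 and 64.5 CPM at ZT00 and at 42.0, 39.0, 43.0 and 49.6 CPM at ZT03. No ZT03 heart reached the lowest ZT00 heart, and Jun fell by 0.67 ± 0.10 (edgeR adjusted p = 0.00558), in all 16 leave-one-out fits and, at -0.62, without the 2 ZT03 hearts. Jun overlaps exons of Junos on the other strand. Myc was at 0.98 ± 0.22 (adjusted p = 0.0699) and Klf4 at -0.45 ± 0.12 (adjusted p = 0.131), neither of which passed.

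Of 25 tested glucocorticoid-responsive genes 19 had a fitted fold change above 0, as did 7542 of all 15567 genes. At an unadjusted p under 0.05, 9 of the list were higher and 1 lower, against 4.85% and 4.24% of all genes. The median was 0.25 over both genotypes, 0.41 in CON, 0.04 in CEK and 0.14 without the 2 ZT03 hearts. Only Arrdc2 (chr8:70835129-70839720, minus strand) was called, an alpha-arrestin that glucocorticoids induce. It had 3.64, 4.49 and 5.54 CPM (lowest, median, highest) at ZT00 and 5.99, 7.62 and 9.57 CPM at ZT03, with no overlap, and rose by 0.73 ± 0.11 (edgeR adjusted p = 0.00731), in all 16 leave-one-out fits and, at 0.70, without the 2 ZT03 hearts. The metallothionein gene Mt2, at low expression, was at 1.58 ± 0.46 (adjusted p = 0.193), Klf15 at 0.42 ± 0.11 (adjusted p = 0.141) and Rasd1 at 0.64 ± 0.18 (adjusted p = 0.179), while Ddit4 was at -0.51 ± 0.13 (adjusted p = 0.115). With CEK at ZT00 replicate 4 left out, 1 glucocorticoid-responsive gene was called higher and 1 lower. Protein breakdown and autophagy genes showed a like count, with 9 of 31 higher and 1 lower at an unadjusted p under 0.05, a median of 0.08 and 0 calls by edgeR. The list holds Klf15 too, and Fbxo32, which encodes the muscle ubiquitin ligase atrogin-1, was at 0.47 ± 0.14 (adjusted p = 0.225).

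**Figure D4:**
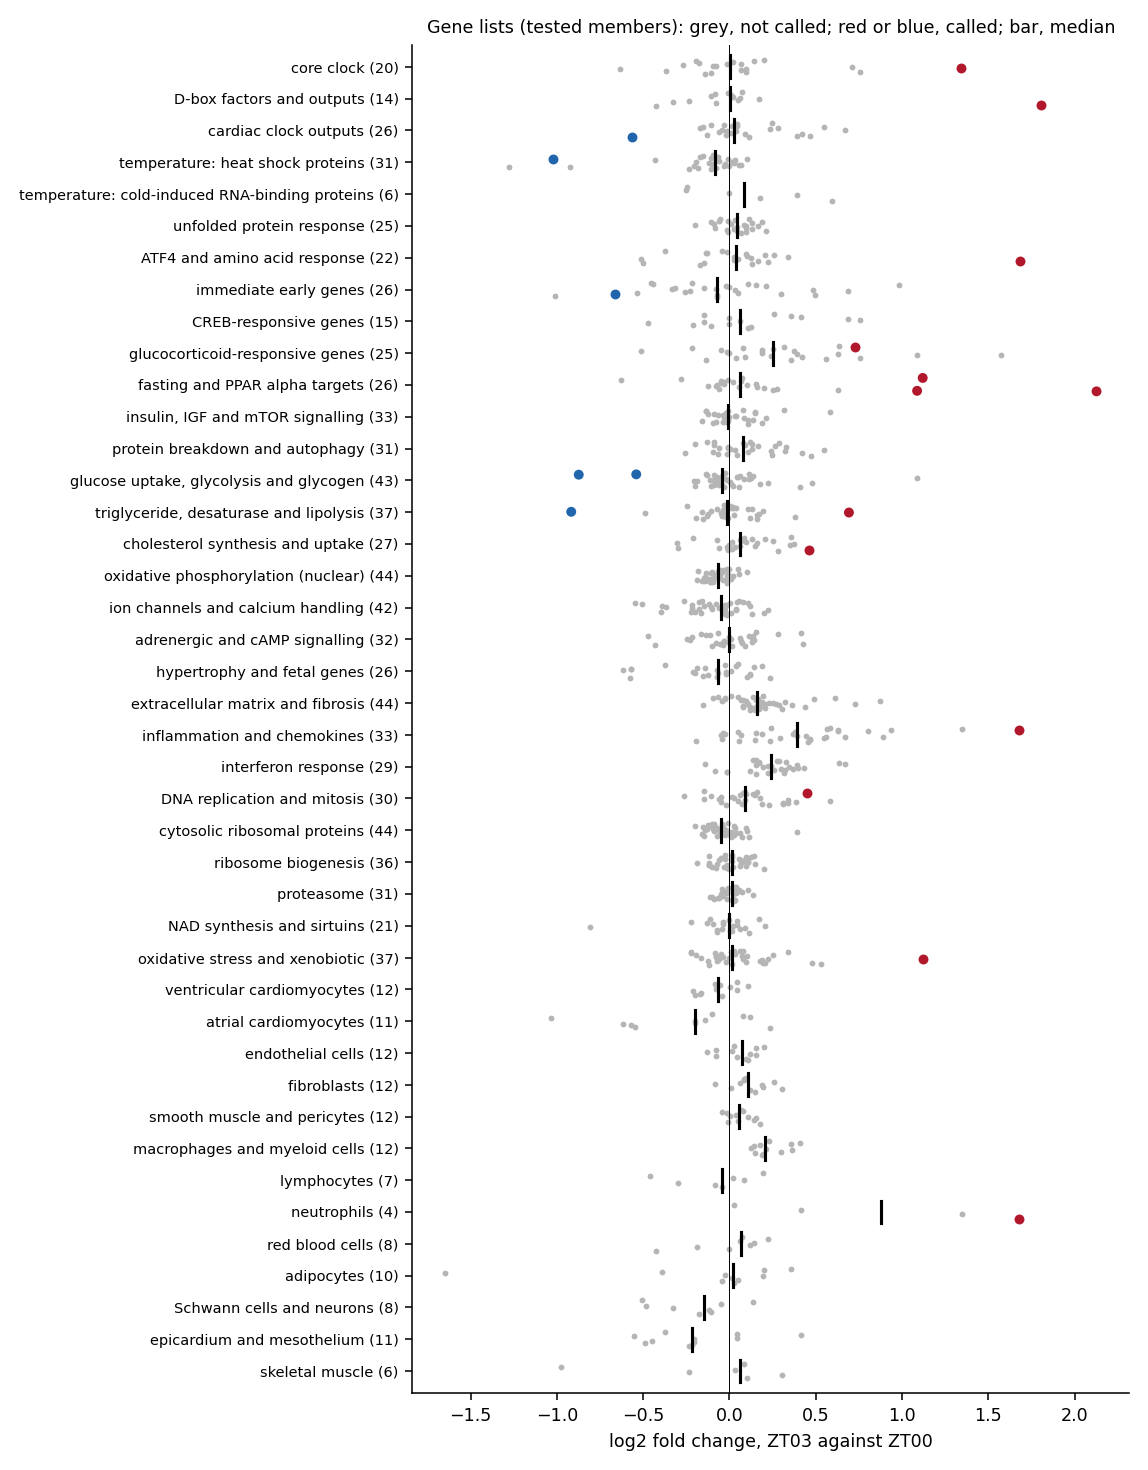
Log2 fold change of ZT03 against ZT00 (x axis) for every tested member of 42 gene lists (y axis, number of tested members in brackets); black bars are medians, red points genes that rose, blue points genes that fell and grey points genes not called. Medians lie near 0 for most lists and highest for neutrophil markers (4 genes) and the inflammation list (0.39).

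Inflammation genes were the pathway list with the highest median, 0.39 over 33 tested genes, with 28 fitted above 0, against 7542 of all 15567 genes. At an unadjusted p under 0.05, 10 were higher, against 4.85% of all genes. S100a8 (chr3:90668978-90670035, plus strand), a calcium-binding protein that neutrophils carry in bulk, was the only call. It was at 0.367, 0.579, 0.327 and 0.691 CPM in CON at ZT00 and at 1.83, 1.95, 2.80 and 0.580 CPM in CON at ZT03, and at 0.390, 0.280, 0.235 and 0.710 CPM against 0.627, 2.10, 0.782 and 0.904 CPM in CEK. The ranges overlapped, and the 2 hearts with ZT00-like clock scores were the highest, at 2.80 and 2.10 CPM. S100a8 rose by 1.68 ± 0.35 (edgeR adjusted p = 0.0423), was at 1.29 and not called without those hearts, and kept its call in 3 of 16 leave-one-out fits (highest adjusted p 0.122, without CON at ZT00 replicate 1). Its partner S100a9 was at 1.35 ± 0.46 (adjusted p = 0.308). Without the 2 hearts the median of the list was 0.20. CEK at ZT00 replicate 4 was the ZT00 heart with the most S100a9 (2.13 CPM). With that library left out, 2 genes of the list were called higher, S100a8 among them.

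Markers of neutrophils were also summed, and S100a8 and S100a9 belong to both lists. The neutrophil score, the mean log2 CPM of 10 markers, was -1.93 ± 0.098 at ZT00 and -1.36 ± 0.42 at ZT03 (SD, n = 8 each), a difference of 0.57 (exact permutation test within genotype, two-sided, p = 0.000816, adjusted p = 0.0155 over 19 library measures). It was 0.37 without the 2 ZT03 hearts, and it missed the threshold without CON at ZT00 replicate 1 or 3 (adjusted p = 0.0698 for each) or CON at ZT00 replicate 2 (0.0543). The summed level of the markers was 4.53 to 6.49 CPM at ZT00 and 5.57 to 12.6 CPM at ZT03. Only 4 of the 10 were abundant enough to test, of which S100a8 and S100a9 were the 2 with an unadjusted p under 0.05, Elane was at 0 in all 16 libraries, and Ly6g was at 0 in 8 ZT00 and 5 ZT03 libraries. In a whole piece of heart, more cells of a type and more RNA per cell cannot be told apart. All 12 macrophage markers had a fitted fold change above 0, against 7542 of all 15567 genes. Of these markers 0 were called by edgeR and 2 had an unadjusted p under 0.05. The median of the markers was 0.20, which was 0.06 without the 2 ZT03 hearts. Their score differed by 0.24 (exact permutation test, adjusted p = 0.587), and their summed level was 249 to 556 CPM at ZT00 and 304 to 670 CPM at ZT03. Interferon genes had 0 calls by edgeR and a median of 0.24. At an unadjusted p under 0.05, 5 of the 29 were higher, against 4.85% of all genes. The part of blood or immune cells in any of these values was not tested.

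The remaining calls came from scattered functions, and most were chosen for naming after their values were seen. Pim3 (chr15:88862186-88865726, plus strand), a serine/threonine kinase gene, had 36.4, 44.2 and 49.2 CPM (lowest, median, highest) at ZT00 and 51.8, 77.3 and 89.8 CPM at ZT03, with no overlap, and rose by 0.78 ± 0.096 (edgeR adjusted p = 0.00211). The long non-coding RNA Neat1 (chr19:5824708-5845478, minus strand), the scaffold of nuclear paraspeckles, had 527, 586 and 681 CPM at ZT00 and 722, 949.9 and 1189 CPM at ZT03, and rose by 0.65 ± 0.091 (adjusted p = 0.00284). Mir22hg, the host transcript of miR-22, rose by 0.76 ± 0.10 (adjusted p = 0.00256), also without overlap. These 3 genes kept their calls in all 16 leave-one-out fits and without the 2 ZT03 hearts. Klf10, a zinc finger gene that TGF beta induces, rose by 0.90 ± 0.17 (adjusted p = 0.0288), and Insig1, which encodes a retention factor for the sterol-sensing SREBP complex, by 0.46 ± 0.095 (adjusted p = 0.0427). Klf10 lost its call in 8 and Insig1 in 13 of the 16 leave-one-out fits (highest adjusted p 0.0769 and 0.111), and neither was called without the 2 ZT03 hearts (0.71 and 0.47). Mcm7, a subunit of the replicative helicase, was the only call among 30 genes of DNA replication and mitosis, at 0.45 ± 0.087 (adjusted p = 0.0288). It lost its call in 10 of the 16 leave-one-out fits (highest adjusted p 0.079, without CEK at ZT00 replicate 3) and was not called without the 2 ZT03 hearts (0.46).

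Among the falls, Siah2, which encodes a ubiquitin ligase of the hypoxia response, had 10.998, 11.6 and 16.3 CPM (lowest, median, highest) at ZT00 and 6.92, 7.77 and 8.70 CPM at ZT03. It fell by 0.68 ± 0.093 (edgeR adjusted p = 0.00256), without overlap. The interleukin 15 receptor subunit gene Il15ra fell by 0.45 ± 0.063 (adjusted p = 0.00287) and Inka2 by 0.65 ± 0.083 (adjusted p = 0.00211), also without overlap. Tnfrsf25, which encodes the death receptor DR3, fell by 0.91 ± 0.16 (adjusted p = 0.0171), and Zkscan3, which encodes a repressor of autophagy genes, by 0.55 ± 0.080 (adjusted p = 0.00408). Siah2, Il15ra, Inka2, Tnfrsf25 and Zkscan3 kept their calls in all 16 leave-one-out fits, and all but Tnfrsf25 kept them without the 2 ZT03 hearts. Among genes of low expression, Serpina3g rose by 2.13 ± 0.42 (adjusted p = 0.0298) from 0.250 to 0.965 CPM in the medians. The 2 hearts with ZT00-like clock scores held its highest values, 2.11 and 2.40 CPM. Without them it was at 1.65 and not called, and it lost its call in 10 of 16 leave-one-out fits (highest adjusted p 0.079, without CEK at ZT00 replicate 3). Misp fell by 1.68 ± 0.26 (adjusted p = 0.00656) from 0.886 to 0.279 CPM, in all 16 leave-one-out fits and, at -1.90, without those hearts. Of the 56 genes, 9 had a mean below 1 log2 CPM. Serpina3g, the pair Rbm12b1 and Rbm12b2 (-0.74 and -0.66) and Gal3st2c have near-identical relatives among which reads can be split in counting. Exons of 15 called genes overlap a gene on the other strand and exons of 6 a gene on the same strand, among them Ccdc63, which lies over the abundant Myl2.

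Further genes that passed fall outside the lists. Frat1, which encodes an inhibitor of the kinase GSK3 in Wnt signalling, had 1.64, 2.08 and 2.86 CPM (lowest, median, highest) at ZT00 and 2.40, 4.00 and 4.80 CPM at ZT03, and rose by 0.83 ± 0.14 (edgeR adjusted p = 0.0123). Klhl38, a Kelch gene of striated muscle, rose by 0.94 ± 0.17 (adjusted p = 0.0191), from a median of 5.70 to 10.6 CPM, and lost its call in 2 of 16 leave-one-out fits. Plscr2, which encodes a phospholipid scramblase, had 16.2, 18.7 and 20.6 CPM at ZT00 and 24.4, 26.4 and 37.6 CPM at ZT03, without overlap, and rose by 0.62 ± 0.087 (adjusted p = 0.00287). Il20rb, which encodes a subunit of receptors for interleukin 20 and its relatives, went from a median of 1.02 to 1.96 CPM and rose by 0.88 ± 0.17 (adjusted p = 0.0288). It was called in 5 of the 16 leave-one-out fits. Among the falls, Dok7, which encodes an activator of the kinase MuSK at the neuromuscular junction, went from a median of 34.2 to 24.4 CPM and fell by 0.39 ± 0.080 (adjusted p = 0.040). Dok7 lost its call in 13 of 16 leave-one-out fits (highest adjusted p 0.107, without CON at ZT00 replicate 4). Fam129c fell by 0.97 ± 0.16 (adjusted p = 0.0123) and Ypel2 by 0.46 ± 0.081 (adjusted p = 0.0172), the latter without overlap. Frat1, Plscr2 and Fam129c were called in all 16 leave-one-out fits. Of these 7 genes, Plscr2 and Dok7 were also called without the 2 ZT03 hearts.

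Other lists held no called gene. Ion channels and calcium handling (42 genes), nuclear oxidative phosphorylation (44), cytosolic ribosomal proteins (44), ribosome biogenesis (36), the proteasome (31), hypertrophy genes (26), adrenergic signalling (32), insulin signalling (33) and extracellular matrix (44) had 0 calls by edgeR and between 0 and 7 genes at an unadjusted p under 0.05. Oxidative phosphorylation had 38 of 44 genes fitted lower, against 8025 of all 15567 genes. Its median was -0.07, which turned to 0.07 without CEK at ZT00 replicate 4. The ribosomal protein median turned likewise from -0.05 to 0.15. Extracellular matrix genes had 38 of 44 fitted higher, against 7542 of all 15567 genes, with a median of 0.16, which went to -0.01 without the 2 ZT03 hearts. No direction is given for these 3 lists.

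The 2 genotypes were then compared in the change from ZT00 to ZT03. By edgeR no gene differed between CEK and CON at an adjusted p of 0.05, 121 (0.777%) had an unadjusted p under 0.05, and DESeq2 called 0. The standard error of this difference had a median of 0.23 over the 56 genes, beside a median size of their change of 0.71, and the smallest adjusted p was 1. A p that misses the threshold does not show that the genotypes act alike. Within CON alone edgeR called 0 genes (623 at an unadjusted p under 0.05, 4%, with the smallest adjusted p 0.0741) and DESeq2 called 25. Within CEK alone edgeR called 4 genes (0.0257%) and DESeq2 40. The 4 were Mir22hg, which rose, and Rbm12b1, Tnfrsf25 and Jun, which fell. Jun was at -0.85 ± 0.13 in CEK and -0.48 ± 0.13 in CON, with a difference of -0.37 ± 0.19 (adjusted p = 1), and Tnfrsf25 was at -1.29 ± 0.19 and -0.54 ± 0.19, with a difference of -0.75 ± 0.27 (adjusted p = 1). Without the 2 ZT03 hearts edgeR called 1 gene in CON and 3 in CEK.

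Libraries of the neighbouring times, none of which entered the comparison above, showed which of these genes also differ between the hours before and after. ZT06 was compared with ZT21 in 8 against 8 libraries, where 726 of 15540 tested genes (4.67%) were called by edgeR, 352 higher (2.27%) and 374 lower (2.41%). Of the 25 genes that rose from ZT00 to ZT03, 11 were called higher at ZT06 than at ZT21, 0 were called lower and 24 had the same sign. Of the 31 that fell, 17 were called lower, 0 higher, and 29 had the same sign. The called rises included Dbp (3.69 ± 0.099), Nr1d1 (3.22 ± 0.17), Ucp3 (0.93 ± 0.20), Chac1 (0.58 ± 0.12), Il1rl2 (0.53 ± 0.12) and Pim3 (0.33 ± 0.078). Called falls included Misp (-2.18 ± 0.40), Ppp1r3b (-0.75 ± 0.11), Ppp1r3c (-0.63 ± 0.085) and Wee1 (-0.41 ± 0.099). Angptl4 (0.42 ± 0.39, adjusted p = 0.702), Txnip (0.56 ± 0.23, adjusted p = 0.193), Arrdc2 (-0.03 ± 0.13, adjusted p = 0.969), Jun (-0.08 ± 0.14, adjusted p = 0.892), Dnajb1 (-0.27 ± 0.20, adjusted p = 0.585) and S100a8 (0.09 ± 0.36, adjusted p = 0.967) did not pass the adjusted threshold there, with an unadjusted p of 0.0231 for Txnip and above 0.05 for the others. The glucocorticoid list had 1 gene called higher and 10 lower of 25 at ZT06 against ZT21, and a median of -0.27.

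**Figure D5:**
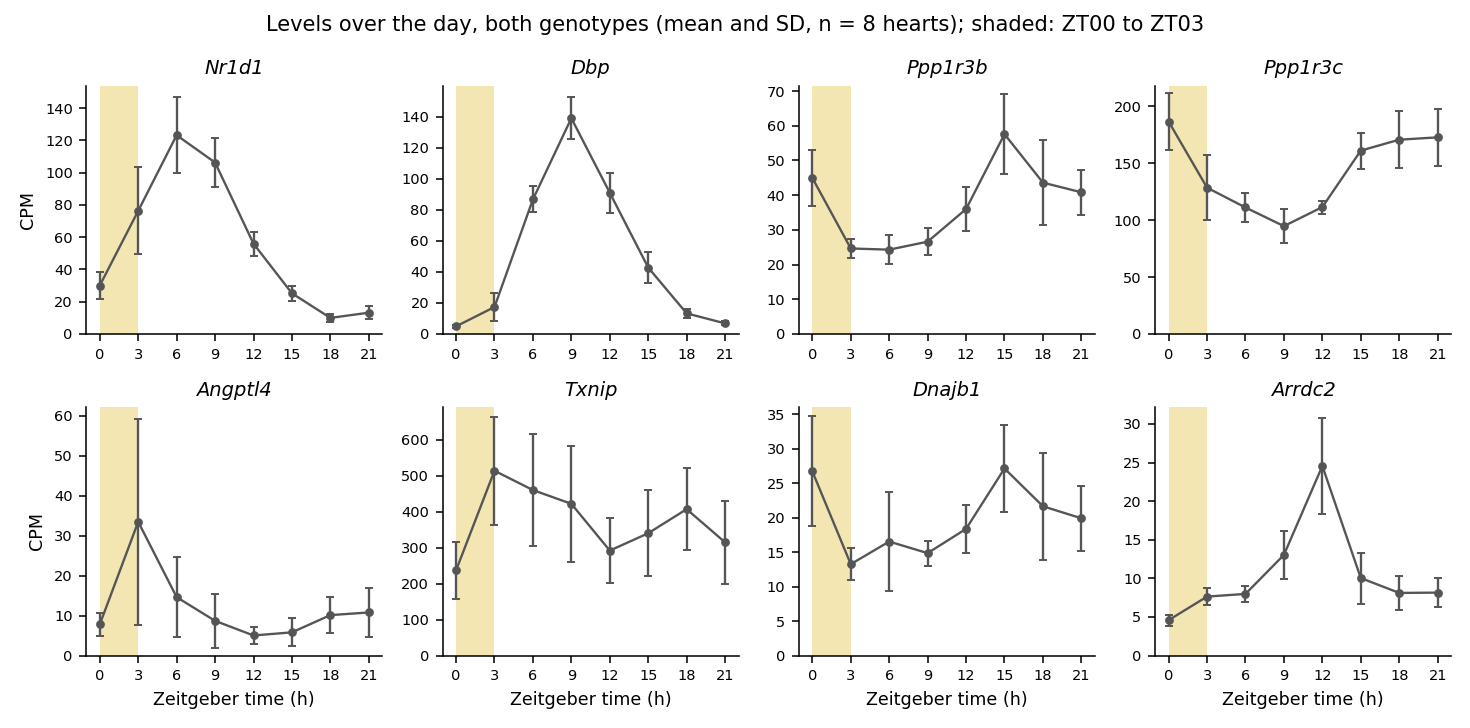
Mean CPM with SD of 8 hearts (4 CON and 4 CEK, y axes from 0) of 8 genes at each zeitgeber time (x axis, h), with the interval from ZT00 to ZT03 shaded. Nr1d1 and Dbp go on rising to ZT06 and ZT09, Arrdc2 is highest at ZT12, Angptl4 and Txnip are highest at ZT03, and Ppp1r3b, Ppp1r3c and Dnajb1 are lower at ZT03 than at ZT00.

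Over the 8 times of day, 17 of the 25 genes that rose had their lowest mean at ZT00 and 13 had their highest mean at ZT03. Of the 31 that fell, 13 had their highest mean at ZT00 and 19 their lowest at ZT03; these counts use the ZT00 and ZT03 libraries and describe the genes that the comparison chose. Mean Angptl4 was 7.77 ± 2.96 CPM at ZT00, 33.4 ± 25.7 at ZT03, 14.6 ± 10.03 at ZT06 and 8.67 ± 6.82 at ZT09 (SD, n = 8 each). Dbp went from 17.3 ± 9.002 CPM at ZT03 to 86.7 ± 8.39 at ZT06 and 139 ± 13.4 at ZT09. Ppp1r3b was at 45.0 ± 8.08 CPM at ZT00, 24.6 ± 2.76 at ZT03, 24.3 ± 4.18 at ZT06 and 57.6 ± 11.5 at ZT15. Arrdc2 went from 4.58 ± 0.704 CPM at ZT00 to 7.63 ± 1.13 at ZT03 and 24.6 ± 6.23 at ZT12.

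The first 3 h of dark, ZT12 to ZT15, served as a comparison of equal length. There 230 of 15950 tested genes (1.44%) were called by edgeR in a fit of 32 libraries, 108 higher (0.677%) and 122 lower (0.765%). Of the 25 genes that rose with the light 0 rose with the dark and 9 fell, among them Nr1d1 (-1.16 ± 0.17), Dbp (-1.09 ± 0.23), Chac1 (-1.09 ± 0.18), Arrdc2 (-1.29 ± 0.17) and Pim3 (-0.53 ± 0.091). Of the 31 that fell with the light 0 fell with the dark and 12 rose, among them Ppp1r3b (0.68 ± 0.12), Ppp1r3c (0.53 ± 0.088), G0s2 (0.67 ± 0.16) and Siah2 (0.39 ± 0.089). The change in the light minus the change in the dark was called for 619 genes (3.88%; 2.08% higher and 1.81% lower), including 22 of the 25 and 28 of the 31, though this fit holds the same ZT00 and ZT03 libraries that chose them. Without the 2 ZT03 hearts it was called for 573 genes. Txnip (0.90 ± 0.26, adjusted p = 0.0504) and Wee1 (-0.38 ± 0.13, adjusted p = 0.0921) were among the 6 called genes for which that difference did not pass.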

How the data were processed

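RNA was taken from biventricular hearts of male mice, and the authors deposited raw counts per gene for each of 64 libraries. Per the submitters' processing notes these were made with bcl2fastq 2.18.0.12, STAR 2.6.1d and HTSeq 0.11.1 on GRCm38; the sources used here give neither annotation release nor strand setting. The table held 48795 gene rows, of which 48435 matched a name of GENCODE M21, and 5 summary rows. These summary rows were left out before scaling and testing, and reads in no gene were 2.99 to 6.16% of each library. Columns were matched to samples by the submitters' number, with 0 columns unmatched.

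Counts were tested with edgeR 4.0.16 (limma 3.58.1, R 4.3.3): filterByExpr (minimum count 10, total 15), TMM scaling, quasi-likelihood fit with genotype and time as terms, two-sided, Benjamini-Hochberg adjusted over all tested genes at 0.05. Standard errors are the fold change over the root of F. Printed CPM were TMM-scaled over all 64 libraries. List scores are means of log2 CPM with a prior count of 2, tested by exact permutation within genotype (4900 regroupings). DESeq2 1.42.0, voom with and without consecutive submitters' numbers as a correlated block, other scalings, filters, covariates and left-out libraries were alternatives. The script was tested on simulated data. The 24 pairs of replicates within groups differed by at least 12.4 times the sampling noise.

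The members and gene lists were chosen with earlier results of these data known. Genes were named by a rule: Nfil3, the core clock and D-box lists, the 12 largest called changes each way with a mean of at least 1 log2 CPM and the same sign in both genotypes, and up to 4 genes of smallest p for each other list, and up to 5 each way for the genotype difference. This named 31 of the 56 called genes; other called genes, and all comments on single hearts, were chosen after values were seen.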

Additional observations from a re-analysis of the deposited data

Results flagged for a closer look

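Single hearts far from the other 3 of their group were looked for in 27 genes and the library measures, as a gap to the nearest heart, in units of the group's range, above Dixon's critical value for 4 samples. Of 128 groups of 4 tested, 9 held such a heart, where chance at 5% gives 6.4. Angptl4 stood out high in CON at ZT03 replicate 3 (64.5 CPM) and in CEK at ZT00 replicate 4 (7.75 CPM), and S100a9 in the latter too (2.13 CPM). Ucp3 was low in CEK at ZT03 replicate 1 (27.4 CPM), where Angptl4, Txnip and Pdk4 were also the lowest of the group. Dnajb1 was low in CEK at ZT03 replicate 2 (10.04 CPM), beside 12.2 to 12.3 CPM in the other 3. In CON at ZT00, Txnip was high in replicate 2 (315 CPM), Chac1 low in replicate 3 (0.491 CPM) and Siah2 high in replicate 3 (16.3 CPM). Il1rl2 was low in CON at ZT03 replicate 4 (2.54 CPM). What set these hearts apart was not tested.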

How the results depend on the processing

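The count of 56 called genes stayed within 1.5 times under RLE scaling, with a stricter filter on low counts or none, with the submitters' number or the atrial score as a covariate, and no genotype term. It was 216 with DESeq2, 152 with voom, 85 with the mitochondrial share as a covariate, 349 when all 64 libraries shared the spread, 245 with the 32 libraries of ZT00, ZT03, ZT12 and ZT15, and 28 without the 2 ZT03 hearts of ZT00-like clock score (the last 2 settings chosen after the data were seen, as was the correlated block below). Leaving out a single library gave 26 to 101 calls. Same-numbered hearts of different groups did not in general deviate together (median correlation 0.02 over 24 pairs, -0.47 to 0.56). The median was -0.03 over 72 other pairs, and 6 libraries correlated best with a same-numbered heart. The labels do not say whether replicate numbers pair hearts, and these correlations cannot settle it. With the replicate block 43 genes were called, 42 of them among the 56, and CON alone had 2. Hearts of different groups in the same run of consecutive submitters' numbers had a median correlation of 0.38 over 7 pairs (-0.42 to 0.59). That median is the value of the pair numbered 63 and 65, which share a run with 64. The other 89 pairs had a median of -0.03. With these runs as a correlated block (correlation 0.31) voom called 69 genes in place of 152, 12 in CON and 7 in CEK.

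Within CON, where edgeR called 0, the count was 25 with DESeq2, 9 with voom, 37 with all 64 libraries, 1 without the low-count filter, 1 without the 2 ZT03 hearts and 0 to 4 with a library left out. Within CEK the 4 calls became 40, 10 and 62 under the first 3 of these, and 0 to 9 with a library left out. The genotype difference kept 0 calls under every setting run. ZT06 against ZT21 gave 1147 genes with voom. The light minus dark difference gave 359 without the filter and 1005 with voom. Of the 19 library measures 0 to 1 passed with a library left out, and the neutrophil score then differed by 0.46 to 0.65 log2 CPM. For 55 of the called genes the direction was followed across these settings, and it did not reverse. The medians of 5 of the 42 lists changed sign without CEK at ZT00 replicate 4 (D-box, immediate early, oxidative phosphorylation, ribosomal protein and lymphocyte genes). The cause of these shifts was not tested. The standard error of a change had a median of 0.13 log2 over all genes, which bounds what 8 hearts against 8 can show.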

Other observations

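Immediate early genes had the smallest unadjusted p in the genotype difference, and were chosen here after their values were seen. Nr4a1, an orphan nuclear receptor gene, had a log2 fold change of 1.85 ± 0.37 in CON and -0.49 ± 0.37 in CEK. The difference was -2.33 ± 0.52 (SE; adjusted p = 1 in edgeR's test across all genes). Fosb differed by -2.32 ± 0.66, Fos by -2.10 ± 0.65 and Btg2 by -0.71 ± 0.22, each with an adjusted p of 1. Fosb was highest in CEK at ZT00 replicate 4 (4.81 CPM), the library that stood apart. Nr4a1 was highest in CON at ZT03 replicate 3 (61.5 CPM), a heart with a ZT00-like clock score. Fos and Btg2 were highest in CEK at ZT00 replicate 3 (21.9 and 51.1 CPM). The median of the 26 genes of the immediate early list was 0.22 in CON and -0.42 in CEK. None of these differences passed, and no test of the list was run.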
